A study of Mus musculus with 18 samples.

Results

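The difference between genotypes in the response to C16 was taken over every gene in cKit-positive bone marrow cells of the mouse. It is the change from DMSO to C16 in cells carrying AE9a minus the change from DMSO to C16 in wild type (WT) cells, computed for each of 15809 tested genes out of 41079 in the count tables. The members were chosen by design and not by measured values: 12 of the 18 libraries of the study, 3 each of AE9a with DMSO, AE9a with C16, WT with DMSO and WT with C16. The remaining 6 libraries, treated with RE, entered the low-count filter, the scaling and the estimate of the spread, but neither response. Genes were also sorted by whether they changed in both genotypes the same way, in both but opposite ways, or in AE9a only or WT only. AE9a is a shortened splice form of the AML1-ETO fusion protein, in which the DNA-binding part of RUNX1 is joined to part of RUNX1T1. The study concerned self-renewal of such cells and the chromatin proteins WDR5 and MLL1, which were inhibited with compounds. Which of these proteins C16 acts on, its dose and the time of exposure are not given in the sources used here, nor are the promoter that drives AE9a, the number, age or strain of the mice, or whether the replicates came from separate animals. If they did not, the p-values measure only the spread between these samples.

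KIT is the receptor for stem cell factor, and marrow cells selected for it are a mixture of stem cells and early progenitors of the erythroid, megakaryocytic, mast cell, granulocytic and monocytic lineages. RUNX1 and GATA factors share in the choice among these lineages, and AML1-ETO proteins recruit corepressors to RUNX1 sites and hold progenitors in an immature state. In bulk samples such as these, fewer cells of a type and less RNA per cell cannot be told apart.

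Library totals ran from 16053727 to 27207748 fragments. AE9a and WT cells were counted in separate tables, so anything that differed between these sets of libraries cannot be told apart from genotype. Runx1t1, part of the fusion, was at 33.5, 46.2 and 37.8 CPM (fragments scaled to a common library total) in AE9a DMSO libraries 1, 2 and 3. It was at 2.44, 4.22 and 0.211 CPM in the AE9a C16 libraries, and no WT library of these groups was above 0.263 CPM. CPM here are scaled by TMM factors, which set libraries to a common level for most genes. The value of AE9a C16 3 lies at the WT level, so this library is called the library labelled AE9a C16 3. It lay 0.657 and 0.686 from AE9a C16 libraries 1 and 2 (root mean square log2 difference over tested genes), which lay 0.349 from each other. WT replicate 2 stood apart under both treatments. WT DMSO 2 lay 0.881 and 0.863 from WT DMSO 1 and 3, which lay 0.357 apart. WT C16 2 lay 1.11 and 1.16 from WT C16 1 and 3, which lay 0.359 apart, and was nearer to the 3 AE9a C16 libraries, at 0.704, 0.725 and 0.744. Among the libraries compared it lay nearest to its own DMSO library, WT DMSO 2, at 0.654. The main counts are given with and without WT replicate 2. Leaving it out was chosen after seeing the data and keeps only WT libraries 1 and 3, which lay close together. Calls and adjusted p-values without WT replicate 2, here and below, are therefore descriptive.

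C16 changed more genes in AE9a than in WT cells, and the difference between the responses passed the test for 2065 of 15809 genes, or 13.1% (edgeR quasi-likelihood test, Benjamini-Hochberg adjusted p under 0.05). For 1310 genes (8.29%) the change was more negative in AE9a and for 755 (4.78%) it was more positive. Of these, 852 and 250 differed by at least 2-fold. The median difference over all tested genes was 0.06; this and every change and difference below is on the log2 scale. In AE9a cells 7234 genes passed (45.8%), 3836 of them higher with C16 (24.3%) and 3398 lower (21.5%). In WT cells 2999 genes passed (19%), 1565 higher (9.9%) and 1434 lower (9.07%). Changes of the 3 AE9a C16 and 3 WT C16 libraries from their DMSO means did not overlap for 7236 genes (45.8%).

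The number of genes whose responses differed depended strongly on single libraries. It was 8038 of 16127 (49.8%) without WT replicate 2, of which 4656 were positive (28.9%) and 3382 negative (21%). Of the 2065 genes, 2049 passed in both analyses, each with the same sign. The analyses share all other libraries and the spread was smaller without WT replicate 2, so this overlap adds no separate support. With replicate number as a block within genotype the number of differing genes was 5813, of which 3070 were positive and 2743 negative, so that 52.8% were positive against 36.6% without the block. Leaving out WT C16 2 gave 6394 of 16258, WT C16 1 gave 1121, WT C16 3 gave 1134, AE9a DMSO 2 gave 1084 and AE9a C16 1 gave 1366. Without the library labelled AE9a C16 3 it was 1390. Over the settings that left out 1 library, the positive genes ran from 291 (without AE9a DMSO 2) to 3642 (without WT C16 2) and the negative genes from 793 to 2752 (without the same 2 libraries). The common biological coefficient of variation was 0.243 with all libraries and 0.0914 without WT replicate 2.

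**Figure D1:**
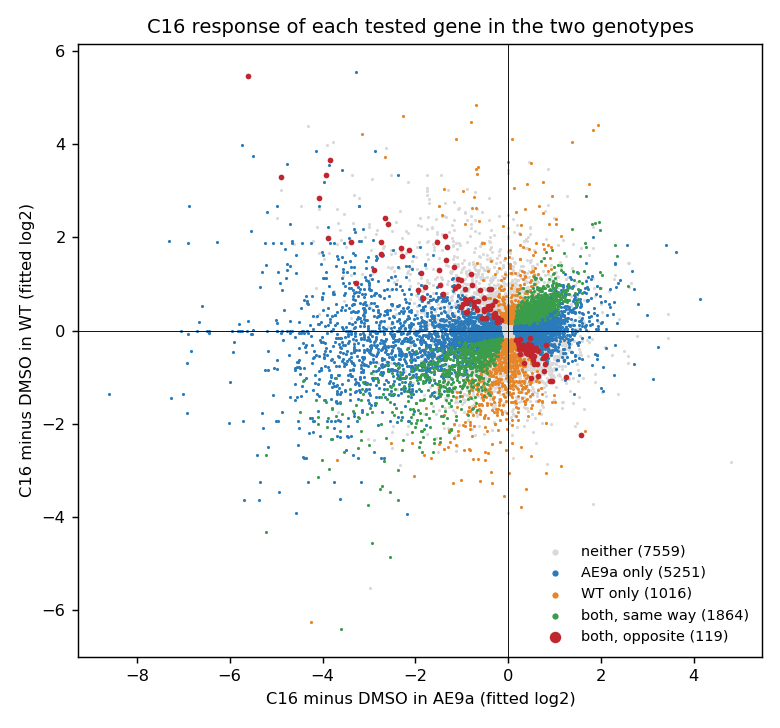
Fitted log2 change from DMSO to C16 of each tested gene, in AE9a on the x axis and in WT on the y axis; colours give the class, with its number of genes in brackets. The 1864 genes that changed the same way lie in the lower left and upper right, and the 119 opposite genes lie in the upper left and lower right.

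Sorting put 1864 genes (11.8%) in the same-way class, 1132 higher and 732 lower with C16 in both genotypes. Among them the change was larger in AE9a for 1324 and larger in WT for 540, and the difference passed the test for 167 (155 larger in AE9a and 12 larger in WT). Opposite responses were found for 119 genes (0.753%), 69 lower in AE9a and higher in WT and 50 the reverse. All 119 passed the test of the difference. Changes of opposite sign that both pass make this nearly certain, so it adds no separate support. A further 5251 genes (33.2%) passed in AE9a only, but for 3737 of them the WT value had the same sign, and the difference itself passed for 1444: 999 lower and 445 higher in AE9a. For 835 of these 1444 the WT value had the opposite sign. WT only held 1016 genes (6.43%), and the difference passed for 275: 202 lower and 73 higher in WT. The other 7559 genes passed in neither genotype, 60 of which passed the test of the difference. The opposite class grew from 119 to 1415 (8.77%) without WT replicate 2 and to 688 without WT C16 2 alone, and fell to 54 without WT C16 3, 59 without WT C16 1, 60 without WT DMSO 3, 62 without WT DMSO 1, 74 without AE9a DMSO 2 and 76 without WT DMSO 2. The WT-only class held 1791 genes without WT C16 2, 534 without WT C16 3, 573 without WT DMSO 1, 643 without WT C16 1 and 651 without WT DMSO 3. Without WT DMSO 1 the same-way class held 1150. Calls in WT then numbered 1785, against 1962 without WT DMSO 3.

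**Figure D2:**
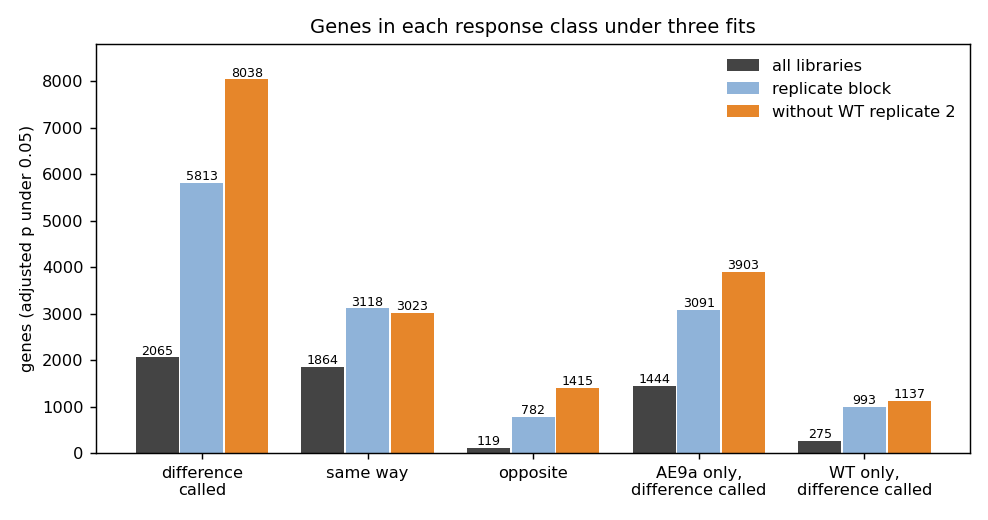
Number of genes (y axis) whose C16 responses differed between genotypes and in 4 response classes, for all libraries, with replicate number as a block within genotype, and without WT replicate 2. The opposite class holds 119, 782 and 1415 genes under these fits.

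The WT replicates did not respond alike. Over the 15809 genes, the log2 changes of WT C16 1 and WT C16 3 from the DMSO library of the same number correlated at r = 0.779, but those of WT C16 2 correlated at 0.401 and 0.397 with them. These correlations run across genes, which are not independent replicates, and no 2 of these changes share a library. Against the fitted AE9a change the correlations were 0.0921, 0.349 and 0.0622 for WT replicates 1, 2 and 3. Among the 7234 genes that changed in AE9a, 70.3% had the same sign in WT replicate 1, 82.6% in replicate 2 and 66.7% in replicate 3. Within the 999 genes lower in AE9a only, WT replicate 2 was also lower in 676 (67.7%), against 413 for replicate 1 and 381 for replicate 3. Within the 445 genes higher in AE9a only, it was also higher in 248 (55.7%), against 135 and 122. Without WT replicate 2, 988 of the 999 and 444 of the 445 differences still passed. In that fit the spread was smaller and 49.8% of all tested genes passed, so this adds no separate support.

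**Figure D3:**
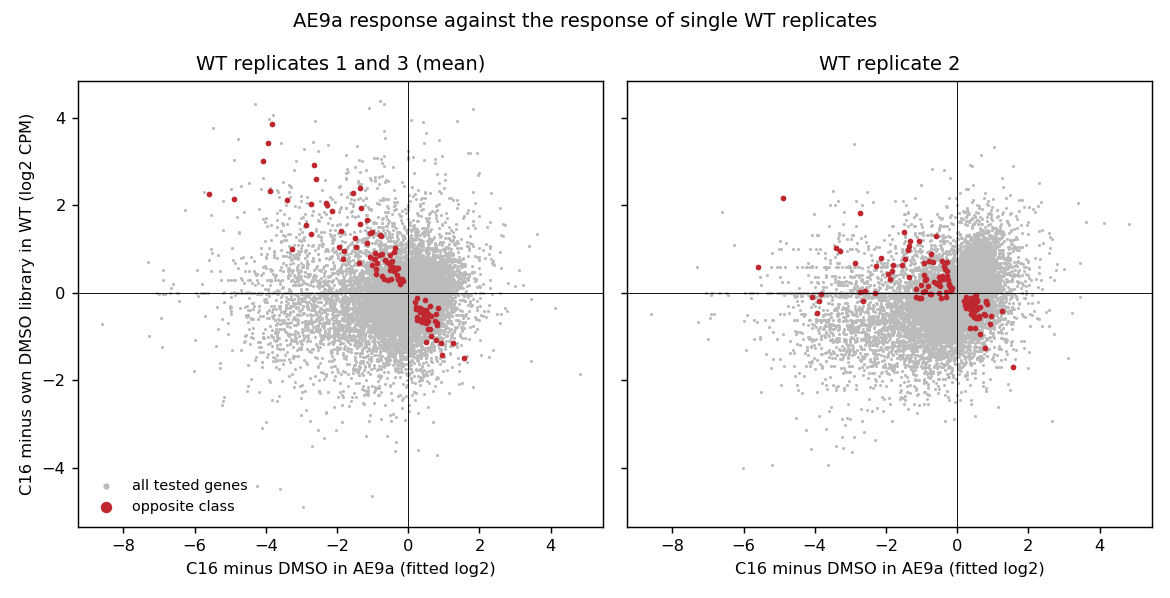
Fitted AE9a log2 change (x axis) against the log2 CPM change of WT libraries from their own DMSO library (y axis), as the mean of replicates 1 and 3 (left) and for replicate 2 (right). Red points are the 119 opposite genes, which were chosen by the fitted WT change and so must lie in opposite quadrants on average; 14 of the 69 that were lower in AE9a were lower in WT replicate 2 as well.

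Genes that fell in AE9a and rose in WT included Gpc4, Pdzd2, Cracd, Ackr1, Ankrd35, Pfkm and Asns. Gpc4 encodes glypican-4, a heparan sulphate proteoglycan of the cell surface (chrX:51139884-51253800, protein coding, with gene coordinates on GRCm39 here and below). It was at 23.1, 32.7 and 29.9 CPM in AE9a DMSO libraries and at 2.07, 3.57 and 0.264 CPM with C16. WT levels were 1.67, 0.716 and 1.51 CPM with DMSO and 24.3, 0.704 and 24.5 CPM with C16. The AE9a groups do not overlap, whereas WT C16 2 lay with the DMSO libraries while WT C16 1 and 3 stood far above them. Gpc4 changed by -3.83 (SE 0.90, adjusted p = 0.0032) in AE9a and by 3.66 (SE 0.92, adjusted p = 0.015) in WT, a difference of -7.49 (SE 1.29, adjusted p = 0.0023). Without WT replicate 2 the difference was -7.72 (adjusted p = 1.4e-06).

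Pdzd2, a protein with many PDZ domains (chr15:12359797-12740052), was at 5.05, 5.33 and 6.46 CPM in AE9a DMSO and 1.19, 0.779 and 0.687 CPM in AE9a C16 libraries. In WT cells its level was 1.39, 1.43 and 1.06 CPM with DMSO and 9.41, 1.26 and 10.2 CPM with C16. Again WT C16 2 lay with the DMSO libraries while WT C16 1 and 3 stood above them. Pdzd2 differed between the responses by -5.08 (SE 0.74, adjusted p = 0.00081). Cracd, an inhibitor of actin capping proteins (chr5:76803225-77021393), was at 44.9, 55.9 and 46.6 CPM in AE9a DMSO libraries and 11.1, 12.4 and 6.08 CPM with C16. Its WT levels were 20.3, 12.7 and 20.7 CPM with DMSO and 79.2, 12.6 and 92.8 CPM with C16. The 2 high WT C16 libraries lie above every AE9a library, and the difference was -4.09 (SE 0.76, adjusted p = 0.0035). Cracd and Pfkm were named after their values were seen.

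Ackr1 is the atypical chemokine receptor of erythroid cells and venules (chr1:173159457-173161079). It was at 8.72, 16.4 and 10.3 CPM in AE9a DMSO and 0.881, 1.02 and 0.159 CPM in AE9a C16 libraries, and at 0.444, 0.22 and 0.151 CPM with DMSO and 2.57, 0.201 and 3.21 CPM with C16 in WT. It differed by -6.93 (SE 1.16, adjusted p = 0.002), with WT C16 2 again among the DMSO libraries. Ankrd35, an ankyrin repeat protein, differed by -7.27 (SE 1.66, adjusted p = 0.012). The calls of Ackr1 and Ankrd35 were lost by limma, which here and below was run with library weights set per genotype. The enzymes Pfkm and Asns differed by less, with smaller errors. Pfkm, the muscle-type phosphofructokinase of glycolysis (chr15:97990470-98030328), was at 56.2, 57.8 and 52.4 CPM in AE9a DMSO and 30.3, 30.9 and 28.4 CPM in AE9a C16 libraries. In WT it was at 31.4, 32 and 32.5 CPM with DMSO and 44.8, 32.8 and 48.4 CPM with C16, and WT C16 2 lay just above the DMSO libraries. Pfkm differed by -1.29 (SE 0.15, adjusted p = 0.00024). Asns, which makes asparagine (chr6:7675169-7693209), was at 125, 124 and 115 CPM in AE9a DMSO and 84.8, 82.8 and 87.1 CPM in AE9a C16 libraries. It was at 41.3, 61.8 and 47.8 CPM with DMSO and 64.2, 73.9 and 62.6 CPM with C16 in WT. All 3 WT replicates were higher with C16, by 0.64, 0.26 and 0.39 on the log2 scale, and the difference was -0.93 (SE 0.16, adjusted p = 0.0024).

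Genes that rose in AE9a and fell in WT had smaller changes, and WT replicate 2 went the same way as replicates 1 and 3 in all 50. Their median change was 0.49 in AE9a and -0.45 in WT, against -0.94 and 0.87 for the 69 genes of the reverse kind. Both kinds were chosen by a fitted WT change that passed, which favours agreement among WT replicates. The agreement in all 50 therefore adds no separate support. Fgl2, a prothrombinase-like protein of the fibrinogen family made by myeloid cells (chr5:21577671-21583384), was at 41.1, 40.4 and 43 CPM in AE9a DMSO and 86.4, 75.5 and 77.7 CPM in AE9a C16 libraries. WT levels were 101, 87.4 and 101 CPM with DMSO and 38.9, 61 and 36.2 CPM with C16. Neither pair of groups overlaps, and WT replicate 2 moved least. Fgl2 differed by 2.03 (SE 0.21, adjusted p = 0.0001).

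Runx2, a member of the RUNX family best known from bone (chr17:44806873-45125518), was at 39, 37.2 and 40.4 CPM in AE9a DMSO and 47.7, 47 and 57.6 CPM in AE9a C16 libraries. In WT cells its level was 51, 49.6 and 50.3 CPM with DMSO and 34.4, 45.7 and 29.4 CPM with C16, and it differed by 0.85 (SE 0.19, adjusted p = 0.011). Rnf217, a ubiquitin ligase, was at 16.6, 14 and 15.8 CPM in AE9a DMSO and 22.9, 23.1 and 33.7 CPM in AE9a C16 libraries, and at 36.9, 37.8 and 37 CPM with DMSO and 18.1, 26.6 and 16.6 CPM with C16 in WT. Its groups do not overlap in either genotype, and the difference was 1.65 (SE 0.24, adjusted p = 0.00081). Dock4, an activator of the small GTPase RAC, differed by 1.34 (SE 0.19, adjusted p = 0.00078), and Mboat1, a membrane acyltransferase, by 1.34 (SE 0.22, adjusted p = 0.0017). Armcx4 differed by 1.61 (SE 0.23, adjusted p = 0.00077). Fgl2, Runx2, Rnf217, Dock4, Mboat1 and Armcx4 each passed when any 1 library was left out, with adjusted p up to 0.038 for Runx2.

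**Figure D4:**
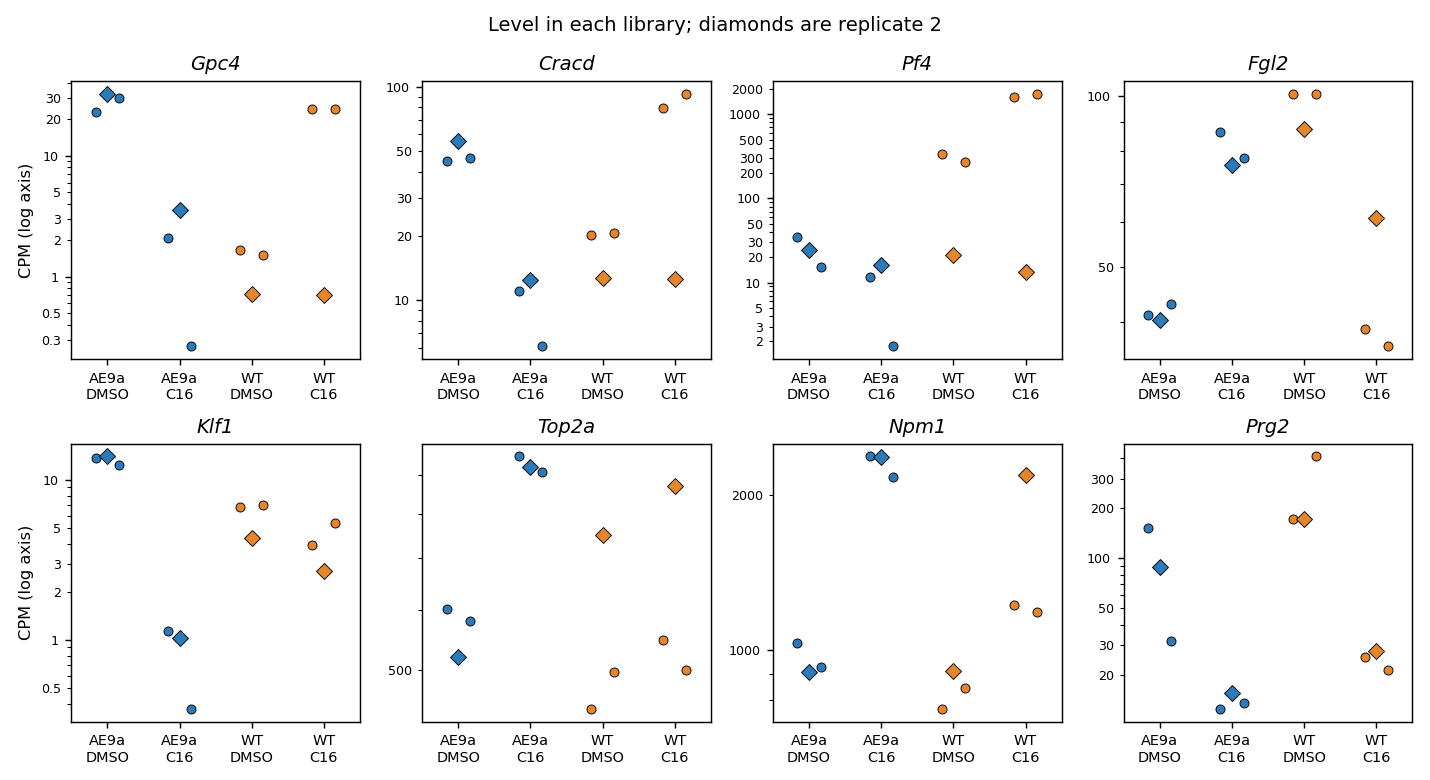
CPM (log axes) in each of the 12 libraries for 8 genes, AE9a in blue and WT in orange, diamonds marking replicate 2. In Gpc4, Cracd and Pf4 the WT C16 diamond, at 0.704, 12.6 and 13.5 CPM, lies far below replicates 1 and 3 and, among the WT libraries, nearest to the diamond of WT DMSO, at 0.716, 12.7 and 21.5 CPM; Prg2 is lower with C16 in all libraries.

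The promoters of opposite genes are shown because their members move in contrary directions and the fusion protein carries the DNA-binding part of RUNX1. The sequences are the 250 bases before an annotated transcript start, from RefSeq on GRCm38.p6, 5′ to 3′ on the strand of the gene. Genes can have further starts: the windows of Cracd and Pfkm lie inside the gene, after its first annotated start. Capitals mark matches to motifs searched on both strands. The motif AGATAA is bound by factors of the Gata1 family. The motif TGTGGT is bound by RUNX factors. The motif CACACCC is bound by Klf1 and its relatives. Fgl2 has no match in this window and is shown as a gene of the reverse kind. Pfkm is shown with the second of its 4 annotated promoters, which holds 2 matches to AGATAA, the most of the 4. Not shown are Gpc4, Pdzd2, Ankrd35 and Asns, which have no match in their windows. Of the reverse kind, Runx2 has 1 match to TGTGGT, and Rnf217, Dock4, Mboat1 and Armcx4 have none. The genes shown therefore do not compare the kinds.
Ackr1 (chr1:173333504-173333753, minus strand): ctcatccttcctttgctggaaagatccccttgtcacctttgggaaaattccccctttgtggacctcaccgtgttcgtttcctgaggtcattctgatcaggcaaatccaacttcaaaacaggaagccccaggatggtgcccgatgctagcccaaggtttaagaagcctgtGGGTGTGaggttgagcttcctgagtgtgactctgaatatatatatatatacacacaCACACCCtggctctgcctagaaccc
Cracd (chr5:76840349-76840598, plus strand): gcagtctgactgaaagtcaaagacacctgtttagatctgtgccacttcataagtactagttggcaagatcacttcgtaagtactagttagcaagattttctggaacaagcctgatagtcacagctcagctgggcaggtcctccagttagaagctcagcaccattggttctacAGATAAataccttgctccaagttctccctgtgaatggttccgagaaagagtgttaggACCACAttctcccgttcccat
Pfkm (chr15:98108221-98108470, plus strand): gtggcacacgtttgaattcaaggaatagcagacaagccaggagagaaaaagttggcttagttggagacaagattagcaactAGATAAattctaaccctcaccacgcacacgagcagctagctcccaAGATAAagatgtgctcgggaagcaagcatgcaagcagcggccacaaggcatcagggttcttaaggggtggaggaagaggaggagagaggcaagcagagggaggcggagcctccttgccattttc
Fgl2 (chr5:21372423-21372672, plus strand): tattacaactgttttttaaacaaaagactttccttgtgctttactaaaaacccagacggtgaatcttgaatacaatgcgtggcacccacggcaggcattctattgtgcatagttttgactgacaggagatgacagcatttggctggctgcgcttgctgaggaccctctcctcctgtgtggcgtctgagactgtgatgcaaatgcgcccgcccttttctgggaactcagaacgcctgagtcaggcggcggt
Among 11783 tested genes with a promoter in the table, AGATAA was in 8.64%, TGTGGT in 16.3% and CACACCC in 10%. Of the 69 genes lower in AE9a and higher in WT, 62 had a promoter: AGATAA was in 9 (14.5%), TGTGGT in 3 (4.84%) and CACACCC in 5 (8.06%). Of the 50 genes of the reverse kind, 41 had a promoter: AGATAA was in 2 (4.88%), TGTGGT in 6 (14.6%) and CACACCC in 2 (4.88%). These counts were taken over each gene's whole promoter sequences, while the sequences shown above were cut to 250 bases. Matches are descriptions of these sequences, were not tested, and do not show binding.

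Erythroid genes fell in AE9a cells and as a group did not in WT cells. Of 30 genes on a list of erythroid regulators, membrane proteins and globins, 24 were lower and 1 higher with C16 in AE9a. In WT 1 was lower and 1 higher. Of all tested genes 21.5% were lower and 24.3% higher in AE9a, and 9.07% lower and 9.9% higher in WT. The difference passed for 18, all negative (8.29% of all tested genes were negative), with a list median of -3.17 against 0.06 over all genes. The calls numbered 12 (without WT C16 1) to 21 (without WT C16 2, where 6394 of all 16258 genes passed) when 1 library was left out. Without the library labelled AE9a C16 3 they were 15 and the median -2.72. The summed level of the list was 1816, 2062 and 1882 CPM in AE9a DMSO libraries and 1119, 1134 and 979.8 CPM with C16. In WT the sums were 1191, 907 and 1203 CPM with DMSO and 1649, 1143 and 1772 CPM with C16, so WT replicate 2 was the lowest under each treatment. Tfrc, the transferrin receptor by which cells take up iron, is the most abundant gene of the list in AE9a cells and was the member that rose, by 1.10 (SE 0.14, adjusted p = 3e-05) in AE9a and 0.74 (SE 0.13, adjusted p = 0.0024) in WT.

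Klf1, the transcription factor of late erythroid genes (chr8:85628611-85631920), was at 13.8, 14.1 and 12.4 CPM in AE9a DMSO and 1.14, 1.02 and 0.37 CPM in AE9a C16 libraries, and at 6.83, 4.35 and 6.96 CPM with DMSO and 3.93, 2.71 and 5.42 CPM with C16 in WT. The AE9a groups do not overlap, whereas the WT C16 libraries reach into the DMSO range. Klf1, named after its values were seen, differed by -3.38 (SE 0.45, adjusted p = 0.00047). Car1, an erythroid carbonic anhydrase (chr3:14831274-14873425), was at 152, 191 and 159.6 CPM in AE9a DMSO and 2.28, 2.38 and 0.423 CPM in AE9a C16 libraries. In WT it was never above 1.51 CPM. The difference of -7.13 (SE 0.72, adjusted p = 7.7e-05) therefore compares a gene that was high in AE9a DMSO cells with one near the floor in WT cells. Gata1, the master regulator of erythroid and megakaryocytic cells, was at 56.4, 67.5 and 63.6 CPM in AE9a DMSO and 10.8, 12.9 and 2.33 CPM in AE9a C16 libraries. Its WT levels were 65.8, 22.3 and 62.6 CPM with DMSO and 93.3, 15.8 and 108 CPM with C16, so WT C16 1 and 3 were higher and WT C16 2 lower than their DMSO libraries. Gata1 differed by -3.36 (SE 0.95, adjusted p = 0.033), and this call was lost when any of 9 libraries was left out, with adjusted p up to 0.09.

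Sptb, the erythroid spectrin beta chain (chr12:76627262-76757321), showed contrary values in the genotypes. It was at 42.7, 48.5 and 45.4 CPM in AE9a DMSO and 3.99, 4.02 and 1.16 CPM in AE9a C16 libraries, and at 16.9, 5.34 and 17.1 CPM with DMSO and 82.8, 4.27 and 97.3 CPM with C16 in WT. The WT change of 2.22 (SE 0.77, adjusted p = 0.057) did not pass, and WT C16 2 was below its own DMSO library. Sptb differed by -6.11 (SE 1.14, adjusted p = 0.0038). The beta globins Hbb-bs and Hbb-bt are near-identical copies whose fragments may be shared, so their separate values are uncertain. Hbb-bs changed by -5.21 (SE 0.75, adjusted p = 0.0001) in AE9a, while Hbb-bt passed as lower in both genotypes, with changes of -4.11 in AE9a and -3.15 in WT (adjusted p = 0.0018 and 0.011).

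Calls of megakaryocyte genes were few with WT replicate 2 and many without it. On a list of 18 platelet glycoproteins, granule proteins and regulators, the median difference was -3.63, but it passed for 2 genes, Gp5 and Rab27b, and for 18 of 18 without WT replicate 2 (all negative, against 21% of all genes then). With all libraries 3 AE9a changes (45.8% of all tested genes) and 0 WT changes (19% of all) passed by edgeR. Unadjusted p by edgeR was under 0.05 for 2 WT changes and for 9 differences. For the difference DESeq2 called 7 and limma 0 (3082 and 1896 of all 15809 tested genes). Leaving out WT C16 2 alone gave 13 calls of the difference (6394 of all 16258 genes then), and leaving out any other single library gave 0. The list's median change from the same-number DMSO library was 1.58, -0.62 and 2.08 in WT replicates 1, 2 and 3, and -1.66, -1.28 and -3.02 in AE9a. Its summed level in WT was 4157, 2717 and 3697 CPM with DMSO and 14240.0, 1192 and 16180.0 CPM with C16, and in AE9a 1143, 1258 and 1037 CPM with DMSO and 680.2, 839.7 and 739.7 CPM with C16.

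Pf4, platelet factor 4 of the alpha granules (chr5:90920362-90921242), was at 335, 21.5 and 269 CPM in WT DMSO and 1598, 13.5 and 1761 CPM in WT C16 libraries. In AE9a it was at 35.1, 24.7 and 15.5 CPM with DMSO and 11.8, 16.1 and 1.75 CPM with C16. WT DMSO 2 was low too, within the range of the AE9a DMSO libraries. Pf4 differed by -3.77 (SE 1.82, adjusted p = 0.17) with all libraries and by -3.78 (adjusted p = 0.00048) without WT replicate 2. Vwf, von Willebrand factor, was at 372, 30.1 and 315 CPM in WT DMSO and 1441, 22.9 and 1566 CPM in WT C16 libraries, and its difference went from -3.50 (SE 1.55, adjusted p = 0.14) to -3.53 (adjusted p = 4e-06). Itga2b, the platelet integrin alpha IIb, went from -3.06 (SE 1.30, adjusted p = 0.13) to -3.12 (adjusted p = 0.00021). Pf4, Vwf and Itga2b were named, and WT replicate 2 was left out, after the values were seen, so the smaller p-values without it are descriptive.

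Of 27 tested genes on a list of mast cell, basophil and eosinophil markers, 23 were lower in AE9a (21.5% of all tested genes were) and 6 in WT (9.07% of all), and all 6 were among the 23. The difference passed for 7, all negative (8.29% of all), with a median of -2.05. Leaving out 1 library gave 4 (AE9a DMSO 2, WT C16 1 or WT DMSO 2) to 15 (WT C16 2, where 6394 of all 16258 genes passed). Its summed level was 16040.0, 21340.0 and 17260.0 CPM in AE9a DMSO and 3497, 4251 and 1492 CPM in AE9a C16 libraries, against 6957, 5185 and 8080.0 CPM with DMSO and 5302, 3373 and 5017 CPM with C16 in WT. AE9a DMSO cells thus held the highest and the library labelled AE9a C16 3 the lowest sum.

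Hdc, which makes histamine (chr2:126435579-126465942), was at 1394, 1692 and 1342 CPM in AE9a DMSO and 108, 129 and 32.8 CPM in AE9a C16 libraries. In WT it was at 535, 269.9 and 595 CPM with DMSO and 339, 163 and 301 CPM with C16, with every WT replicate lower but the groups overlapping. Hdc differed by -3.23 (SE 0.58, adjusted p = 0.0029). Ms4a2, the beta chain of the high-affinity IgE receptor, differed by -2.62 (SE 0.52, adjusted p = 0.0057), and Fcer1a, its alpha chain, by -3.56 (SE 0.90, adjusted p = 0.019). The call of Fcer1a was lost without AE9a DMSO 2, at adjusted p = 0.054. Gata2, a regulator of stem and mast cells, differed by -1.91 (SE 0.50, adjusted p = 0.023), and lost its call without AE9a DMSO 2, WT C16 1, WT DMSO 2 or WT C16 3.

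Kit encodes the receptor by which the cells were selected (chr5:75735647-75817382). It was at 858, 1191 and 978 CPM in AE9a DMSO and 279.6, 324 and 222 CPM in AE9a C16 libraries. WT levels were 123, 59.6 and 128 CPM with DMSO and 109.7, 128 and 114 CPM with C16. Even with C16 the AE9a libraries were above every WT library, and WT replicate 2 was the only WT replicate that was higher with C16. Kit fell in AE9a by 1.88 on the log2 scale and differed between the responses by -2.05 (SE 0.44, adjusted p = 0.0083).

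Of the eosinophil granule genes on that list, Prg2, Epx and Prg3 were of the same-way class and Ear6, an eosinophil-associated ribonuclease, was not. Prg2, the major basic protein (chr2:84810805-84813977), was at 151, 88.9 and 32 CPM in AE9a DMSO and 12.4, 15.5 and 13.5 CPM in AE9a C16 libraries, and at 172, 174 and 410.3 CPM with DMSO and 25.5, 27.6 and 21.3 CPM with C16 in WT. All 3 WT replicates were lower with C16. Prg2 changed by -2.72 (SE 0.46, adjusted p = 0.0003) in AE9a and -3.34 (SE 0.46, adjusted p = 0.00046) in WT, and the difference of 0.63 (SE 0.61, adjusted p = 0.49) did not pass. Epx, eosinophil peroxidase, changed by -2.94 and -4.55, and Prg3 by -2.36 and -2.99, with differences of 1.61 (SE 0.62, adjusted p = 0.096) and 0.63 (SE 0.66, adjusted p = 0.53). The difference of Epx passed without WT replicate 2, at 2.09 (adjusted p = 0.036), while those of Prg2 and Prg3 did not. Ear6 changed by -3.42 (SE 0.54, adjusted p = 0.00019) in AE9a and by -0.85 (SE 0.45, adjusted p = 0.21) in WT, which did not pass. Its difference of -2.56 (SE 0.69, adjusted p = 0.026) passed, and was lost by limma and when any of 6 libraries was left out.

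Further genes fell in AE9a and not, or less, in WT. Mxd4 is a MAX partner that opposes MYC (chr5:34331231-34345076). It was at 99.7, 138 and 114 CPM in AE9a DMSO and 28.6, 31.3 and 28.4 CPM in AE9a C16 libraries, and at 71.1, 52.3 and 67.9 CPM with DMSO and 68.9, 43.9 and 73.2 CPM with C16 in WT, where the groups overlap. Mxd4 differed by -1.95 (SE 0.24, adjusted p = 0.00026). Ccnd2, cyclin D2, was at 696, 888 and 783 CPM in AE9a DMSO and 332, 372 and 312 CPM in AE9a C16 libraries, while all 3 WT replicates were higher with C16, by 0.44, 0.66 and 0.49, without passing the test. Ccnd2 differed by -1.73 (SE 0.41, adjusted p = 0.014). Runx1, whose locus gives the DNA-binding part of the fusion and whose counts may include it, was at 299, 378 and 341 CPM in AE9a DMSO and 143, 152 and 135 CPM in AE9a C16 libraries. In WT cells its level was 263, 187 and 259 CPM with DMSO and 261, 175 and 288 CPM with C16, and it differed by -1.27 (SE 0.25, adjusted p = 0.0054). For Runx1t1 the difference was -4.22 (SE 1.75, adjusted p = 0.12) and did not pass by edgeR, though it did by DESeq2, with 6 fragments in all in the WT DMSO and 7 in the WT C16 libraries. Jup, plakoglobin, reported as a target of AML1-ETO, fell in both genotypes, with changes of -2.33 (SE 0.18, adjusted p = 9e-07) in AE9a and -0.95 (SE 0.18, adjusted p = 0.0028) in WT. It was among the 155 same-way genes with a larger change in AE9a, with a difference of -1.38 (SE 0.25, adjusted p = 0.0029). Of 23 tested genes on the list of reported AML1-ETO targets, the difference was positive for 1 and negative for 4. Of all tested genes 4.78% were positive and 8.29% negative. The list median was -0.01. Leaving out WT C16 2 gave 13 calls (6394 of all 16258 genes then), and leaving out any other single library gave 3 to 5.

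Proliferation genes rose in AE9a cells. Of 36 cell cycle genes, 33 rose in AE9a, where 24.3% of all tested genes rose. In WT 0 passed by edgeR (19% of all did), while 2 had an unadjusted p under 0.05. Yet the difference passed for 1, Cenpf (13.1% of all passed), with a median of 0.72. By edgeR 17 differences had an unadjusted p under 0.05. DESeq2 called 2 and limma 5 (3082 and 1896 of all 15809 tested genes) for the difference. Without WT replicate 2 the difference passed by edgeR for 36 of 36, all positive (28.9% of all genes then), with a median of 0.85. Leaving out WT C16 2 alone gave 36 (6394 of all 16258 genes then), and 0 or 1 remained without any other single library. The list's median change from the same-number DMSO library was 0.08, 0.26 and -0.03 in WT replicates 1, 2 and 3 and 0.74, 0.95 and 0.81 in AE9a. Top2a, DNA topoisomerase II alpha of dividing cells (chr11:98883773-98915037), was at 601, 519.9 and 579.5 CPM in AE9a DMSO and 951, 919.5 and 908 CPM in AE9a C16 libraries. In WT it was at 445, 751 and 498 CPM with DMSO and 548, 870.0 and 500.2 CPM with C16, so WT replicate 2 was the highest under each treatment. Top2a differed by 0.53 (SE 0.33, adjusted p = 0.27) with all libraries and by 0.56 (adjusted p = 0.00042) without WT replicate 2. Cdc20, the activator of the anaphase-promoting complex, went from 0.80 (SE 0.31, adjusted p = 0.1) to 1.05 (adjusted p = 1.1e-06). Both were named after their values were seen.

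Granule genes of early neutrophil precursors again depended on WT replicate 2. Of 15 tested, 5 rose and 2 fell in AE9a (24.3% and 21.5% of all tested genes) and 3 fell in WT (9.07% of all). The difference was positive for 1 (Igfbp4) and negative for 1 (Srgn), where 4.78% and 8.29% of all were. Without WT replicate 2 it was positive for 11 of 15 (28.9% of all genes then), and the median was 1.31 against 0.86 with it. Without WT C16 2 alone it passed for 11 (6394 of all 16258 genes then). Both calls of the full set were lost without AE9a DMSO 2, the library labelled AE9a C16 3, WT C16 1, WT DMSO 2 or WT C16 3. Mpo, myeloperoxidase (chr11:87684610-87695238), was at 1505, 1412 and 1429 CPM in AE9a DMSO and 5513, 5238 and 6811 CPM in AE9a C16 libraries. WT levels were 1211, 4381 and 1347 CPM with DMSO and 1307, 5512 and 1054 CPM with C16. WT DMSO 2 lay between the other DMSO libraries and the AE9a C16 libraries. Mpo differed by 1.83 (SE 0.95, adjusted p = 0.2) with all libraries and by 2.14 (adjusted p = 1.1e-06) without WT replicate 2. Ctsg, cathepsin G, went from 1.52 (SE 0.63, adjusted p = 0.12) to 1.77 (adjusted p = 7.1e-07), and Prtn3, proteinase 3, from 1.74 (SE 1.14, adjusted p = 0.3) to 2.50 (adjusted p = 4.5e-07). Ctsg and Prtn3 were named after their values were seen. Cebpa, the transcription factor that commits cells to the granulocyte line (chr7:34818718-34821353), was at 90.6, 86.7 and 83.8 CPM in AE9a DMSO and 177, 186 and 219 CPM in AE9a C16 libraries, and at 146, 235 and 144 CPM with DMSO and 121, 239 and 113 CPM with C16 in WT. Cebpa differed by 1.31 (SE 0.39, adjusted p = 0.042), a call lost when any of 9 libraries was left out, with adjusted p up to 0.12.

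Later neutrophil genes did not share a direction of difference. Of 20 on that list, 7 fell in AE9a (21.5% of all tested genes) and 5 in WT (9.07% of all). The difference was negative for 1, Ly6g (8.29% of all). The median was -0.05 with all libraries and -0.77 without WT replicate 2. It ran from -1.15 to 0.15 when 1 library was left out. Without WT replicate 2 the difference was positive for 4 and negative for 8 (28.9% and 21% of all genes then).

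Other genes rose in AE9a only. Slc9a7, a proton exchanger of the trans-Golgi network (chrX:19965090-20158274), was at 5.55, 5.99 and 8 CPM in AE9a DMSO and 15.1, 12.1 and 26.2 CPM in AE9a C16 libraries, and at 12.5, 7.93 and 11.4 CPM with DMSO and 6.39, 8.14 and 5.94 CPM with C16 in WT. The library labelled AE9a C16 3 was the highest, and WT C16 1 and 3 were lower than their DMSO libraries. Slc9a7 differed by 2.08 (SE 0.36, adjusted p = 0.0024). Ms4a4c, a membrane protein of myeloid cells, was at 15.3, 14.3 and 11.2 CPM in AE9a DMSO and 46.3, 45.4 and 17.2 CPM in AE9a C16 libraries. Its WT levels were 9.33, 11.5 and 8.72 CPM with DMSO and 2.27, 7.34 and 1.89 CPM with C16, and it differed by 2.77 (SE 0.63, adjusted p = 0.012), a call lost by limma. Fn1, fibronectin, differed by 3.23 (SE 0.83, adjusted p = 0.021). Its call was lost without AE9a DMSO 2, the library labelled AE9a C16 3, WT C16 1, WT DMSO 2 or WT C16 3, and by limma.

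**Figure D5:**
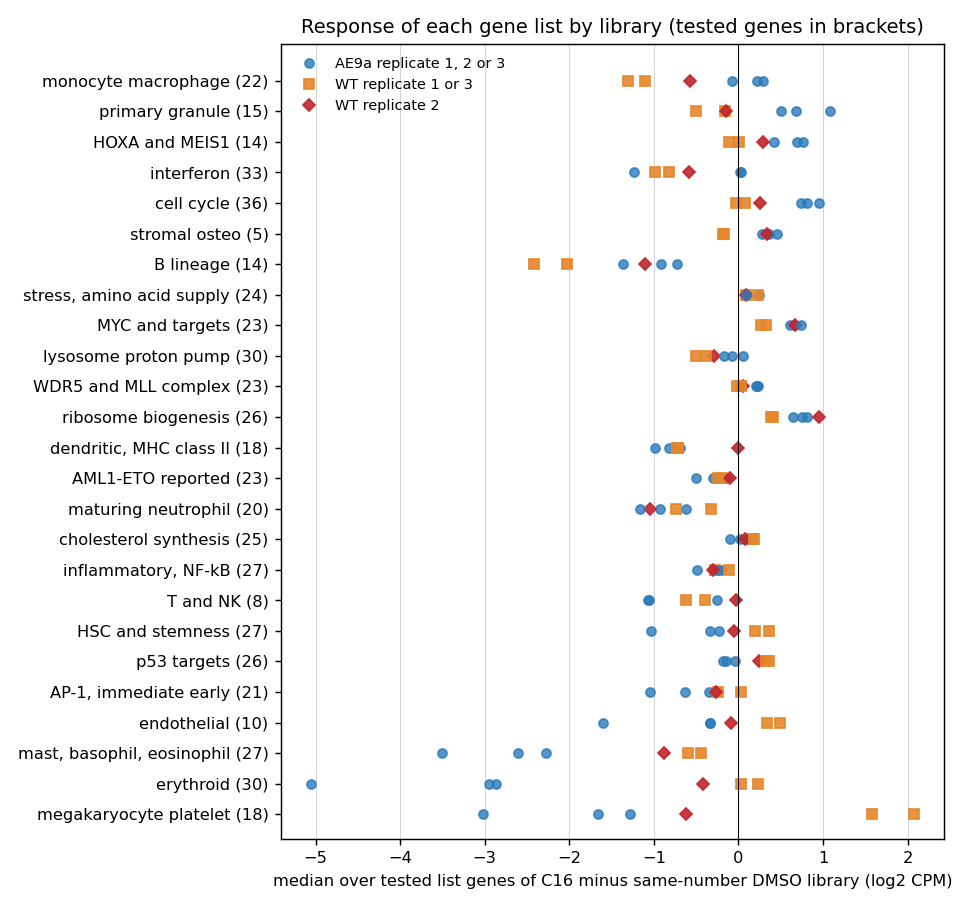
Median over the tested genes of each list (number in brackets) of the log2 CPM change from the DMSO library of the same number (x axis), 1 point per C16 library, lists ordered by their median difference between genotypes. WT replicate 2 (red) lies on the side of AE9a (blue), away from WT replicates 1 and 3 (orange), for the megakaryocyte list, at -0.62 against 1.58 and 2.08.

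Monocyte and lysosome genes were counted beside the 9.07% of all tested genes that fell in WT and the 21.5% that fell in AE9a. Of 22 monocyte and macrophage genes, 7 fell in WT and 1 in AE9a, where 1 rose. The median was -1.05 in WT and 0.25 in AE9a. The difference passed for 1, Adgre1, where 13.1% of all tested genes passed. Without WT replicate 2 it was positive for 12 and negative for 1 (28.9% and 21% of all genes then). Without WT C16 2 alone it passed for 10 (6394 of all 16258 genes then), and without AE9a DMSO 3 for 2. Adgre1, the F4/80 antigen of macrophages (chr17:57665650-57790527), was at 155, 87.6 and 158 CPM in WT DMSO and 46.6, 68.6 and 42.6 CPM in WT C16 libraries. In AE9a it was at 41.5, 42.7 and 48.5 CPM with DMSO and 60.5, 52.9 and 61 CPM with C16. All WT C16 libraries lie below the WT DMSO libraries, and the AE9a change did not pass. Adgre1 differed by 1.74 (SE 0.30, adjusted p = 0.0022). Csf1r, the receptor for macrophage colony-stimulating factor, was at 138, 233 and 109 CPM in WT DMSO and 43, 145 and 42 CPM in WT C16 libraries. Its difference went from 1.31 (SE 0.67, adjusted p = 0.19) to 1.79 (adjusted p = 1.9e-05) without WT replicate 2. Csf1r was named after its values were seen.

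Of 30 genes of the lysosome and its proton pump, 14 fell in WT and 11 fell and 2 rose in AE9a. The difference was positive for 7 (4.78% of all tested genes were positive) and negative for 2. The 9 calls became 7 to 10 without any single library but WT C16 2, without which there were 18 (6394 of all 16258 genes then). Npc2 carries cholesterol out of lysosomes (chr12:84801333-84819886). It was at 346, 316 and 325 CPM in WT DMSO and 209.5, 239 and 204 CPM in WT C16 libraries, and at 270.4, 256 and 253 CPM with DMSO and 282, 269 and 272 CPM with C16 in AE9a. The WT groups do not overlap, and WT replicate 2 moved least. Npc2 differed by 0.68 (SE 0.11, adjusted p = 0.0013). Lipa, the lysosomal acid lipase (chr19:34469716-34504874), was at 169.6, 135 and 167 CPM in WT DMSO and 109, 115 and 110.2 CPM in WT C16 libraries, and at 90.0, 86.7 and 94.3 CPM with DMSO and 114, 98.2 and 97.5 CPM with C16 in AE9a. Lipa differed by 0.69 (SE 0.14, adjusted p = 0.0054). Grn, progranulin, fell in both genotypes, with changes of -0.44 (SE 0.15, adjusted p = 0.029) in AE9a and -1.34 (SE 0.15, adjusted p = 0.00018) in WT, and was among the 12 same-way genes with a larger change in WT. Its difference was 0.91 (SE 0.21, adjusted p = 0.014). Mitf, a regulator of lysosomal and mast cell genes, was 1 of the 2 negative members, with -1.19 (SE 0.25, adjusted p = 0.0073). The other was Atp6v0d1, a proton pump subunit, with -0.34 (SE 0.07, adjusted p = 0.005).

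Further genes fell in WT only. Scel, sciellin (chr14:103750499-103850782), was at 15.9, 12.2 and 9.73 CPM in WT DMSO and 1.01, 2.76 and 0.842 CPM in WT C16 libraries. In AE9a it was at 6.29, 5.55 and 7.16 CPM with DMSO and 5.03, 4.63 and 5.13 CPM with C16, and it differed by 2.67 (SE 0.60, adjusted p = 0.011). Ifi209, an interferon-inducible protein (chr1:173458425-173475494), was at 19.9, 14.2 and 14.7 CPM in WT DMSO and 2.92, 3.57 and 2.1 CPM in WT C16 libraries, and at 55.5, 40.5 and 29.5 CPM with DMSO and 67.6, 62.7 and 21.8 CPM with C16 in AE9a. All 3 WT replicates were lower, whereas the library labelled AE9a C16 3 was below the other AE9a C16 libraries. Ifi209 differed by 2.78 (SE 0.65, adjusted p = 0.014), a call lost by limma. It belongs to a family of closely related genes, so shared fragments make its value uncertain. Snhg11, a long non-coding RNA, differed by 2.94 (SE 0.68, adjusted p = 0.013). Of 33 tested interferon-responsive genes, the difference passed for 1, Ifi203 (13.1% of all tested genes passed), with a median of 0.72. It passed for 3 without WT C16 2 (6394 of all 16258 genes then) and for 1 without AE9a DMSO 1. Without the library labelled AE9a C16 3 it passed for 4, with a median of 1.10, and without any other single library for 0. That library's median change was -1.24, against 0.01 and 0.03 in AE9a replicates 1 and 2.

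Among genes that rose in WT only, several were high in WT C16 1 and 3 alone. Npas4, an activity-induced transcription factor (chr19:5034381-5053467), was at 0.944, 0.496 and 0.756 CPM in WT DMSO and 11.2, 0.452 and 12.9 CPM in WT C16 libraries, and at 0.991, 1.02 and 0.845 CPM with DMSO and 0.622, 0.902 and 0.211 CPM with C16 in AE9a. Htr2a, a serotonin receptor (chr14:74878314-74944299), was at 9.11, 7.99 and 8.88 CPM in WT DMSO and 30.8, 6.03 and 34.6 CPM in WT C16 libraries, and at 5.4, 5.04 and 4.67 CPM with DMSO and 3.83, 3.03 and 2.7 CPM with C16 in AE9a. In both genes WT C16 2 was not above its own DMSO library. Npas4 differed by -4.16 (SE 1.14, adjusted p = 0.028) and Htr2a by -2.12 (SE 0.58, adjusted p = 0.028). Each call was lost when any of 8 libraries was left out, with adjusted p up to 0.075 for Npas4 and 0.085 for Htr2a. Adcy5, an adenylate cyclase, differed by -5.22 (SE 1.49, adjusted p = 0.034) with the same pattern, at 19.2, 0.201 and 21.5 CPM in the WT C16 libraries, and its call was lost when any of 9 libraries was left out. All 3 calls were lost by limma.

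Ribosome biogenesis genes rose in both genotypes. Of 26 on the list, 26 rose in AE9a (24.3% of all tested genes rose) and 25 in WT (9.9% rose), and 25 were of the same-way class (11.8% of all). The median change was 0.74 in AE9a and 0.60 in WT. With all libraries the difference passed for 0 genes by edgeR, with 1 at an unadjusted p under 0.05, and for 0 by DESeq2 and 0 by limma. It passed for 22 of 26 without WT replicate 2, all positive (28.9% of all genes then). It passed for 12 without WT C16 2 alone (6394 of all 16258 genes then) and for 0 without any other single library. The median change was larger in WT replicate 2 than in the other WT replicates, at 0.41, 0.95 and 0.38 in replicates 1, 2 and 3.

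Npm1, nucleophosmin (chr11:33102498-33114143), was at 1034, 909 and 930.0 CPM in AE9a DMSO and 2379, 2374 and 2168 CPM in AE9a C16 libraries, and at 769.7, 914 and 844 CPM with DMSO and 1227, 2194 and 1186 CPM with C16 in WT. Every C16 library lies above every DMSO library, and WT C16 2 stands with the AE9a C16 libraries. Npm1 differed by 0.40 (SE 0.24, adjusted p = 0.27) with all libraries and by 0.69 (adjusted p = 6e-05) without WT replicate 2. Ncl, nucleolin, went from 0.25 (SE 0.21, adjusted p = 0.42) to 0.50 (adjusted p = 0.0007). Npm1 and Ncl were named after their values were seen. Of 23 genes of MYC and its targets, 14 rose and 3 fell in AE9a (24.3% and 21.5% of all tested genes). In WT 11 rose (9.9% of all), and all 11 were of the same-way class. The difference passed for 2 (13.1% of all), both negative, Mxd4 and Ccnd2, and without WT C16 2 for 12 (6394 of all 16258 genes then). Myc itself rose in AE9a by 0.64 (SE 0.18, adjusted p = 0.0083) and in WT changed by 0.38 (SE 0.18, adjusted p = 0.14), which did not pass.

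Same-way genes outside these lists included Gja1, connexin 43 (chr10:56253297-56266519), at 12.5, 10.5 and 13.5 CPM in AE9a DMSO and 39.5, 42.5 and 35.2 CPM in AE9a C16 libraries. In WT cells its level was 9.38, 18.4 and 9.98 CPM with DMSO and 35.1, 58.8 and 37.5 CPM with C16. All 3 WT replicates rose by a similar amount, 1.89, 1.67 and 1.90. Gja1 differed by -0.12 (SE 0.34, adjusted p = 0.83). Sntb1, a syntrophin of the dystrophin complex, rose in both genotypes and differed by -1.21 (SE 0.71, adjusted p = 0.25), or -1.52 (adjusted p = 0.00062) without WT replicate 2, with WT levels of 10.8, 6.56 and 9.18 CPM with DMSO and 88.6, 13 and 96.1 CPM with C16. Kif7, a kinesin of hedgehog signalling, differed by -0.22 (SE 0.50, adjusted p = 0.78).

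WDR5 and MLL1 act in complexes that methylate histone H3 and in related chromatin complexes. Of 23 genes encoding these complexes, 11 rose and 2 fell in AE9a (24.3% and 21.5% of all tested genes). In WT 2 rose and 1 fell (9.9% and 9.07% of all). The difference was positive for 2 (Psip1 and Setd1a) and negative for 2 (Kdm6a and Ash2l), between -0.35 for Ash2l and 0.42 for Psip1. These are 4 of 23, where 13.1% of all tested genes passed; without WT replicate 2 it was positive for 13 and negative for 4, where 49.8% of all passed. Leaving out WT C16 2 gave 13 calls (6394 of all 16258 genes then), and leaving out any other single library gave 0 to 3. Wdr5 was at 136, 133 and 136 CPM in AE9a DMSO and 169, 172 and 187 CPM in AE9a C16 libraries, and at 140.5, 161 and 141 CPM with DMSO and 127, 169 and 121 CPM with C16 in WT. It rose in AE9a by 0.38 (SE 0.11, adjusted p = 0.011), and its difference of 0.47 (SE 0.16, adjusted p = 0.063) did not pass with all libraries but was 0.57 (adjusted p = 3.8e-05) without WT replicate 2. Kmt2a, which encodes MLL1, differed by 0.12 (SE 0.12, adjusted p = 0.49), and Men1, encoding its partner menin, by 0.33 (SE 0.24, adjusted p = 0.34). Neither passed with all libraries, and without WT replicate 2 Men1 was at 0.36 (adjusted p = 0.0012) and Kmt2a at 0.15 (adjusted p = 0.054).

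MLL1 is known to maintain homeobox genes. Of 14 tested genes of the HOXA cluster and its partners, 4 rose and 1 fell in AE9a (24.3% and 21.5% of all tested genes). In WT 0 passed by edgeR (19% of all did), and 0 had an unadjusted p under 0.05. The difference passed for 1 (13.1% of all), Pbx3, at -1.14 (SE 0.22, adjusted p = 0.0047). Without WT C16 2 it passed for 6 (6394 of all 16258 genes then), and without any other single library for 1. Hoxa9 was at 3.77, 4.25 and 3.53 CPM in AE9a DMSO and 6.89, 7.87 and 7.83 CPM in AE9a C16 libraries, and at 3.22, 5.07 and 3.63 CPM with DMSO and 2.77, 6.63 and 3 CPM with C16 in WT. It rose in AE9a by 0.97 (SE 0.28, adjusted p = 0.012), and the difference of 0.91 (SE 0.40, adjusted p = 0.14) did not pass with all libraries but was 1.22 (adjusted p = 0.00031) without WT replicate 2. Meis1 differed by -0.41 (SE 0.79, adjusted p = 0.74), Spi1, which encodes the myeloid factor PU.1, by 0.81 (SE 0.40, adjusted p = 0.18), and Cdkn1a, the cell cycle inhibitor p21, by -0.93 (SE 0.48, adjusted p = 0.2). These 3 did not pass with all libraries, but without WT replicate 2 Meis1 was at -0.45 (adjusted p = 0.016), Spi1 at 1.16 (adjusted p = 1.1e-06) and Cdkn1a at -0.98 (adjusted p = 0.0022). Nanog, named in the aims of the study, had 0 fragments in all 18 libraries.

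Stem cell genes were counted beside the 13.1% of all tested genes whose difference passed. Of 27 tested, 5 rose and 4 fell in AE9a (24.3% and 21.5% of all). In WT 1 rose and 1 fell (9.9% and 9.07% of all). The difference was positive for 2 (Cd34 and Cd48) and negative for 2 (Gata2 and Ctnnal1), a share near that of all genes. Without WT replicate 2 it was positive for 5 and negative for 13 (28.9% and 21% of all genes then). There were 12 calls without WT C16 2 alone, where 6394 of all 16258 genes passed. There were 0 without AE9a DMSO 2, WT C16 1 or WT C16 3, and 1 to 4 without any other single library. Cd34, a surface marker of progenitors, was at 74.2, 69.1 and 62.3 CPM in AE9a DMSO and 120.1, 119.7 and 140.3 CPM in AE9a C16 libraries, and at 101, 86.5 and 110.3 CPM with DMSO and 114, 122 and 116 CPM with C16 in WT. Cd34 differed by 0.64 (SE 0.18, adjusted p = 0.033), a call lost when any of 8 libraries was left out.

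Stress genes were counted on several lists, against 13.1% of all tested genes whose difference passed, or 49.8% without WT replicate 2. Of 26 targets of p53 the difference was positive for 2 (Gadd45a and Pmaip1) and negative for 1 (Ddit4), and without WT replicate 2 positive for 4 and negative for 17. Of 24 genes of amino acid supply and stress it was positive for 1 (Nupr1) and negative for 3 (Asns, Nqo1 and Ddit4). Nqo1, an NRF2 target, was at 18.2, 17.2 and 26.9 CPM in AE9a DMSO and 4.46, 4.3 and 4.02 CPM in AE9a C16 libraries, and at 32.1, 10.8 and 26.7 CPM with DMSO and 52.1, 9.2 and 65.3 CPM with C16 in WT. It differed by -3.14 (SE 0.85, adjusted p = 0.026), a call lost by limma and when any of 7 libraries was left out. Of 25 genes of sterol and fatty acid synthesis it was negative for 2, Srebf2 at -0.40 (SE 0.07, adjusted p = 0.002) and Hmgcs1 at -0.47 (SE 0.13, adjusted p = 0.029), the latter lost by limma and when any of 7 libraries was left out. Immediate early and NF-kB lists of 21 and 27 genes had 1 negative call each, Jund and Nfkbie. Without WT C16 2 alone, 6394 of all 16258 genes passed. That setting gave 16 calls on the stress list, 15 on the p53 list, 13 on the sterol list and 9 each on the immediate early and NF-kB lists. Leaving out any other single library gave 1 to 4, 0 to 3, 1 to 3, 0 or 1, and 0 or 1.

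Markers of cells outside the selected lineages were counted beside the 13.1% of all tested genes whose difference passed. Their part in the results was not tested. The difference passed for 1 of 14 B lineage genes (Cd79b), 0 of 8 T and NK genes by edgeR (2 at an unadjusted p under 0.05, 1 by DESeq2 and 0 by limma), 2 of 10 endothelial genes (Plvap and Stab2), 1 of 5 stromal genes (Runx2) and 1 of 18 dendritic and MHC class II genes (Tcf4). B lineage genes fell in WT for 6 (9.07% of all tested genes) and in AE9a for 4 (21.5% of all), with medians of -2.11 and -1.21. Their summed level was 315, 189.8 and 256 CPM in WT DMSO and 183, 261 and 179 CPM in WT C16 libraries, and 117, 85.8 and 88.3 CPM with DMSO and 102, 86.8 and 64.9 CPM with C16 in AE9a. The T and NK sums were 730.3, 301 and 741 CPM with DMSO and 628, 179 and 619 CPM with C16 in WT and 409, 583 and 569 CPM with DMSO and 89.1, 113 and 81 CPM with C16 in AE9a, and 11 of the 19 listed genes, Cd3e among them, were too low to test. Most of these sums was Gzmb, granzyme B, which mast cells also make. Endothelial sums were 364, 300.5 and 373 CPM with DMSO and 376, 205 and 405 CPM with C16 in WT and 163, 153 and 143 CPM with DMSO and 137, 133 and 113 CPM with C16 in AE9a, with Cdh5, the defining cadherin, never above 0.994 CPM. Plvap, a protein of fenestrated endothelium, was at 12.9, 14.6 and 14.5 CPM in AE9a DMSO and 0.725, 1.19 and 0.634 CPM in AE9a C16 libraries, and differed by -3.89 (SE 0.52, adjusted p = 0.00049). Stromal sums lay between 47.7 and 86.3 CPM, and 9 of its 14 genes were too low to test.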

How the data were processed

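RNA was sequenced from cKit-positive mouse marrow cells of 2 genotypes under 3 treatments, with 3 libraries per group. The authors deposited raw fragment counts per gene in 1 table per genotype. Per the file headers, featureCounts 1.6.2 counted these fragments over exons of GRCm39 genes. Per the submitters' processing notes, the reads were aligned with HISAT2 2.1.0 after FastQC 0.11.9 and fastp 0.23.2, and featureCounts is given there as 2.0.3, so its version differs between these sources. DESeq2 is also named in those notes. The headers give no strand setting, so overlapping and antisense genes and near-identical copies may share fragments.

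The tables were joined on gene identifier. edgeR 4.0.16 in R 4.3.3 fitted 6 group means to 18 libraries, after its default filter on low counts had left 15809 of 28108 genes with any fragment, with TMM scaling and the quasi-likelihood F test. A gene passed at a Benjamini-Hochberg adjusted p under 0.05 over all tested genes. A class needs the change in each genotype to pass or miss that threshold. Log2 CPM of single libraries use a prior count of 2. The procedure was tested on counts simulated independently for each library, with no outlying replicate. That test therefore does not show how WT replicate 2 affects the calls. DESeq2 1.42.0, limma 3.58.1 with library weights set per genotype, other scalings and filters and left-out libraries were alternatives. Leaving out WT replicate 2 whole was chosen after seeing the data.

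Named genes were the 12 with the largest difference each way, 5 per class and direction at a mean of 5 CPM or more, up to 4 per list, 16 fixed genes, and the genes marked as chosen after their values were seen. The members and the 25 gene lists were chosen with earlier results of these data known. Same-numbered DMSO and C16 libraries deviated together in WT (r = 0.618, 0.772 and 0.617 for numbers 1, 2 and 3), where libraries 1 and 3 also correlated across numbers at 0.592 and 0.523, and less in AE9a (0.0614, 0.254 and 0.142). The labels do not say what a number marks. Libraries treated with RE were left out of the comparison. Promoter sequences are RefSeq's on GRCm38.p6, matched by symbol. A gene with several promoters counts as holding a motif where any of them does.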

Additional observations from a re-analysis of the deposited data

Results flagged for a closer look

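The C16 response itself differed between genotypes, which is what brings the following values here. The edgeR test of the difference passed for 755 genes with a more positive and 1310 with a more negative change in AE9a. Among genes fixed as of interest to the study, it passed for Runx1 at -1.27, Kit at -2.05, Gata1 at -3.36, Gata2 at -1.91 and Cebpa at 1.31 on the log2 scale. For Runx1 and Kit the difference passed when any 1 library was left out. The calls of Gata1 and Cebpa were each lost when any of 9 libraries was left out, and that of Gata2 when any of 4 was. WT replicate 2 and the library labelled AE9a C16 3 stood apart from their groups, and their part in these values was not tested beyond leaving them out.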

How the results depend on the processing

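The number of genes whose responses differed was 2065. Scaling gave 2096 (RLE) or 2167 (upper quartile), the filters 1495 (none) or 2227 (1 CPM in 3 libraries), DESeq2 3082, limma 1896 and the 12 DMSO and C16 libraries alone 1404. Leaving out 1 library gave 1084 to 6394 such genes, 54 to 688 opposite, 1150 to 1829 same-way and 534 to 1791 WT-only genes, and 1785 to 4198 genes changed in WT. With a replicate block within genotype there were 5813 differing, 3118 same-way, 782 opposite and 1916 WT-only genes, and 5816 changed in WT. In this paired fit the numbers are those of the labels, and each library correlated best with its own number in both genotypes, as a hint from the data. Without WT replicate 2 the same counts were 8038, 3023, 1415, 1714 and 6152, and without the library labelled AE9a C16 3 as well 7963, 3219, 1490, 2002 and 6711. No low-count filter left 65 opposite genes. limma, with library weights set per genotype, gave 732 same-way, 31 opposite, 9240 AE9a-only and 146 WT-only genes and 909 changed in WT. Each genotype fitted alone gave 322 same-way, 20 opposite, 9403 AE9a-only and 125 WT-only genes, with each genotype's own spread. The cause of these shifts was not tested. Of 89 named genes whose difference passed, 47 passed without any single library, 42 were lost under at least 1 such setting, 31 without the library labelled AE9a C16 3 and 27 by limma. No sign was reversed over 22 settings per gene. RLE scaling moved the median difference from 0.06 to 0.02. Depth limits genes of few fragments, such as Runx1t1 in WT.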
